A study of Mus musculus with 3 samples.

Results

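Neurogenic cellulates were compared with BIO cellulates, 2 of the 3 cultures derived from C2C12 whose RNA was hybridised to Agilent whole mouse genome arrays. C2C12 cells are mouse myoblasts, and in low serum they fuse into multinucleated myotubes. Both cultures were chosen by their sample labels, with 1 array each, and the third array, of untreated myoblasts, is given beside them as the starting level. In both cultures cells spent 8 days in 2% horse serum to form myotubes, and AraC at 10 µM, a nucleoside analog toxic to dividing cells, was present from day 2 to day 4. They were then split into mononucleate cells, called cellulates, by 48 h of myoseverin, a microtubule-binding purine, and 24 h after myoseverin received BIO, an inhibitor of the kinase GSK-3, for 2 days. The neurogenic culture went on to 250 nM reversine, a purine used to make myoblasts less committed, for 48 h, and was then kept for 7 days on laminin in DMEM/F12 that held N2 supplement and all-trans retinoic acid at 1.5 µM. The sources disagree on doses: BIO is 2.5 µM in the sample labels and 10 µM in the treatment protocol, and myoseverin 20 µM in the series text and 30 µM in the protocol. No source says how many dishes stand behind an array, so the medium, reversine, retinoic acid, laminin, the added days and the differences between 2 dishes cannot be told apart.

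Retinoic acid, made from vitamin A by retinol and retinaldehyde dehydrogenases, enters the nucleus and binds RAR and RXR receptors, which sit on paired copies of a short motif near target genes. Cells limit the signal by inducing enzymes that break it down (the Cyp26 hydroxylases) or that turn its precursor back (Dhrs3). It is widely used to drive stem cells towards neurons, and in embryos it sets Hox gene expression along the body axis.

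Levels are given on the log2 scale, as processed intensity over the array's own 75th percentile, so that 0 is the 75th-percentile signal of its array. They describe a probe, and levels of different probes are not amounts of RNA that can be set against each other. A gene counted as measured where its probe stood well above background, and "at least" marks a gene measured on 1 of the 2 cellulate arrays, whose fold is a lower bound. The comparison held 12255 genes, of which 510 (4.16%) had at least a 2-fold higher level in neurogenic cellulates and 220 (1.8%) at least a 2-fold lower one, and the median log2 difference was -0.17. Each count of list members below is to be read beside these 4.16% and 1.8%. Over the 10875 genes measured on both arrays, 266 (2.45%) were higher and 153 (1.41%) lower. The share of higher among all calls was 69.9%, or 91.9% with spike-in scaling and 81.3% with the percentile taken over probes measured on both arrays. With 1 array a group there is no test. List members within 2-fold are named beside the others for their roles and were chosen after their values were seen. The arrays carry 108 probes spotted about 10 times that were well above background on both, and the SD of the log2 difference between single spots of these was 0.18, a figure that holds no spread between cultures. The share of spots well above background was 46.9% for BIO cellulates and 45.7% for neurogenic cellulates, of 43379 each.

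**Figure D1:**
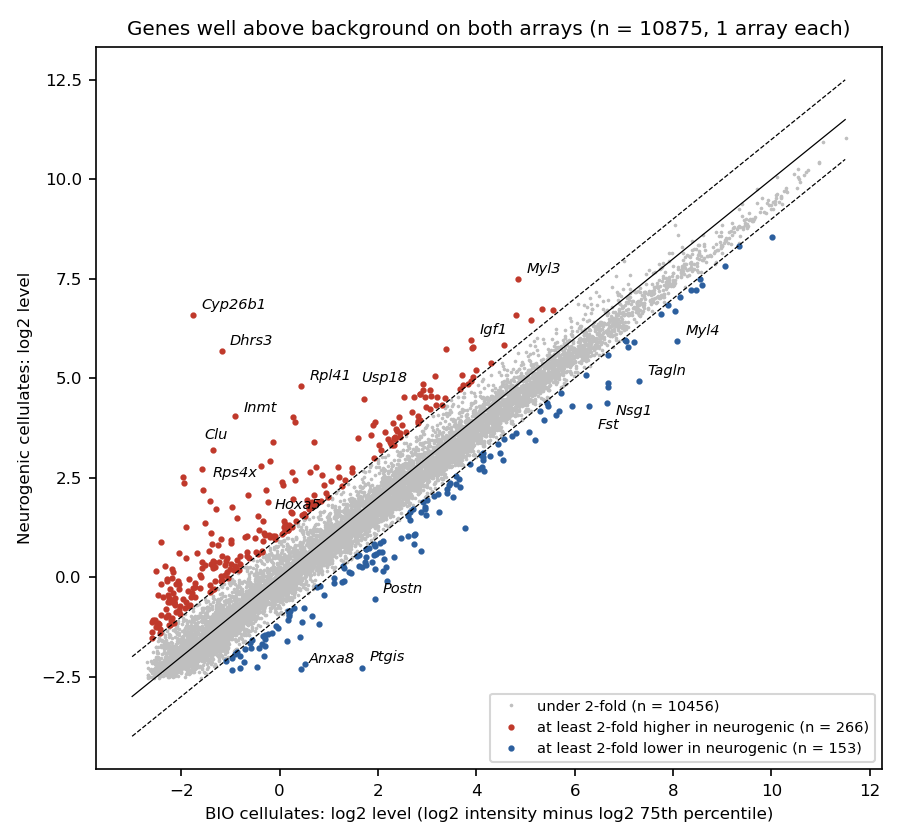
Log2 level of each gene well above background on both cellulate arrays, BIO cellulates on the horizontal axis and neurogenic cellulates on the vertical axis; each point is 1 gene on 1 array pair, the solid line marks equal levels and the dashed lines 2-fold. Cyp26b1 and Dhrs3 lie farthest above the line, at differences of 8.35 and 6.86, and Ptgis farthest below, at -3.95.

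In bulk RNA, fewer cells of a type and less RNA per cell cannot be told apart in these values. Genes that handle retinoic acid held the 2 widest differences of the comparison. Cyp26b1, which hydroxylates retinoic acid for breakdown, had log2 levels of -0.68 in myoblasts, -1.76 in BIO cellulates and 6.59 in neurogenic cellulates, a 326-fold difference between the cellulates by its 1 probe. Dhrs3, which reduces retinaldehyde to retinol, had -0.40, -1.18 and 5.68 in the same order, a 116-fold difference, and its second probe gave a log2 difference of 5.48. In the list of synthesis, breakdown and binding, 3 of 12 compared were past 2-fold on the higher side and 0 on the lower. The median was 0.11, and of all genes compared 4.16% were higher and 1.8% lower. Cyp26a1, the other hydroxylase with a measured probe, was at -2.30 in neurogenic cellulates, dim in BIO cellulates and well above background in myoblasts at -3.56, at least 1.35-fold higher. The enzymes that make retinoic acid stayed within 2-fold, with log2 differences of -0.20 for Aldh1a1, 0.25 for Aldh1a2 and -0.22 for Rdh10, as did Crabp1, a cytosolic binding protein (-0.28), and Stra6, the receptor that takes up retinol (-0.43).

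Among receptors, cofactors and known targets, 5 of 25 compared were at least 2-fold higher and 0 lower, beside 4.16% and 1.8% of all genes. The median was 0.20. The count of higher members was 2 after normexp background correction and 7 with spike-in scaling. Rarb, the receptor gene that retinoic acid itself induces, was at -1.62 in neurogenic cellulates and dim on both other arrays (-4.62 in BIO cellulates, -5.32 in myoblasts), at least 2.17-fold higher. The other receptor genes differed little, with -0.09 for Rara, 0.33 for Rarg, 0.20 for Rxra and 0.09 for Rxrb. Tgm2, a transglutaminase gene, had levels of -0.77 in myoblasts, -1.07 in BIO cellulates and 0.49 in neurogenic cellulates, 2.96-fold higher, with 1.24 by a second probe measured on both. Plat, the tissue plasminogen activator gene, was 2.17-fold higher, from 2.84 to 3.96, against 3.79 in myoblasts. The zinc finger gene Tshz1 was 2.27-fold higher by its brightest probe and 0.14 on the log2 scale by its second. Hic1, a transcriptional repressor gene, was at least 8.04-fold higher, from a probe dim on both other arrays. Without the genes that were well above background on the neurogenic array alone, the 2 lists keep 2 and 3 members past 2-fold.

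Promoter sequence was available for 15 members of the first list and 20 of the second, from RefSeq (GRCm38.p6; the array headers name mm9, so these coordinates are those of the RefSeq table). Both strands of the 250 bases before and 50 after each start site were searched for 2 copies of that receptor motif in a row, 5 bases apart (the DR5 element) or 2 apart (the DR2 element). A DR5 element was found in 1 promoter of each list, Cyp26a1 and Rarb, and in 32 of all 32851 promoters (0.0974%); a DR2 element was found in none of either list and in 88 of all promoters (0.268%). Cyp26b1, Dhrs3 and the 21 Hox genes with a promoter had neither in this window. The 150 bases before the start site of both genes are shown because they hold the element (capitals) through which this response is classically described.
Rarb, chr14:16575477-16575626, minus strand: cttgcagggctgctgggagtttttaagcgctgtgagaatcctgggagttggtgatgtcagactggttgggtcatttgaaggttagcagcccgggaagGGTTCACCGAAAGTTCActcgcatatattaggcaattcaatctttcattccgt
Cyp26a1, chr19:37697658-37697807, plus strand: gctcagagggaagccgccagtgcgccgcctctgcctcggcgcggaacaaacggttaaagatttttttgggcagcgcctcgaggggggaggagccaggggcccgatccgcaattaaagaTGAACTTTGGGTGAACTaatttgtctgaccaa
Counted from the start site, the element spans positions -53 to -37 of Rarb and, on the opposite strand, -32 to -16 of Cyp26a1. Of the 31 genes with a DR5 element, 5 were compared here: Rarb, Cyp26a1, the cilia gene Cfap45 (2.37-fold higher), the embryonic globin gene Hbb-y (-0.16 on the log2 scale) and the protease gene Prss27 (at least 1.17-fold lower); the last 3 were named after their values were seen.

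In the Hoxa cluster, 3 genes from its front, anterior end stood out. Hoxa5 had levels of 0.20 in myoblasts, -0.27 in BIO cellulates and 2.18 in neurogenic cellulates, a log2 difference of 2.45. Hoxa2 had -0.14, -1.36 and 0.40, 3.39-fold higher than in BIO cellulates, and Hoxa4 2.04, 2.05 and 3.20, 2.21-fold higher, with 0.46 by its second probe. Hoxa3, which lies between them, gave 0.15 by its brightest probe and 1.53 by its second. Genes farther along the cluster were within 2-fold, with -0.03 for Hoxa6, -0.16 for Hoxa7, 0.17 for Hoxa9 and -0.10 for Hoxa10, and Hoxa13, at its far end, gave 0.56 by its brightest probe and 0.20 by its second. Of 24 Hox genes compared, these 3 were the members past 2-fold, 0 were lower and the median was 0.13; in the Hoxb cluster the measured values ran from -0.39 for Hoxb7 to 0.44 for Hoxb6, with a bound of 0.71 for Hoxb9.

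**Figure D2:**
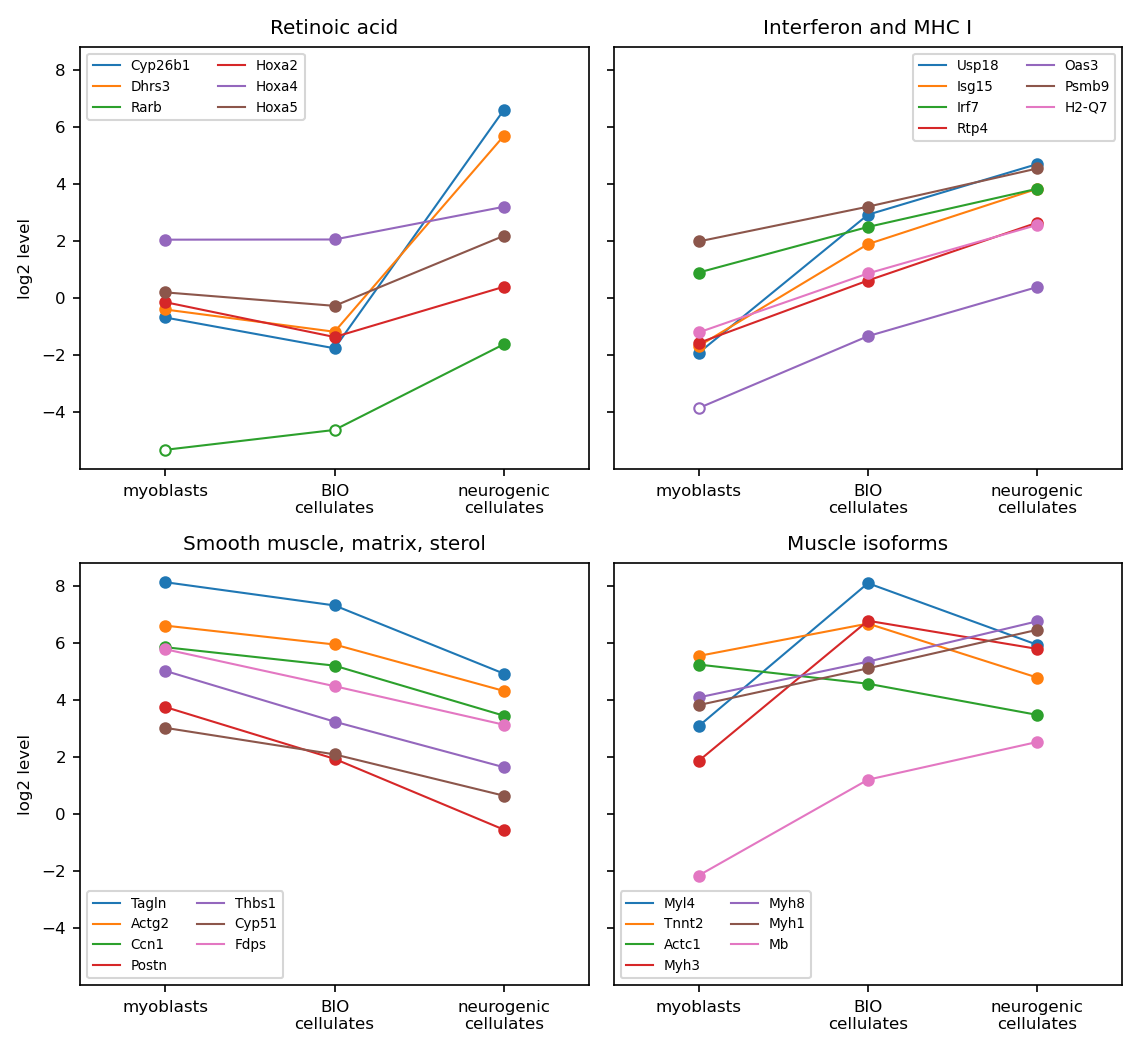
Log2 level on each of the 3 arrays (1 array per point) for genes of 4 groups; filled points were well above background and open points were not. Retinoic acid and Hox genes were highest on the neurogenic array, interferon and MHC genes were higher on each cellulate array than on the one to its left, smooth muscle, matrix and sterol genes were lower, and the muscle isoforms drawn parted, with Myl4, Tnnt2, Actc1 and Myh3 below and Myh1, Myh8 and Mb above their level in BIO cellulates.

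A share of interferon-stimulated genes was higher in neurogenic cellulates, with 11 of 28 compared at least 2-fold higher, 0 lower and a median of 0.83, beside 4.16% of all genes and a median of -0.17. The count was 19 when arrays were scaled to their spike-in controls and 6 after normexp background correction, where the median was 0.35. Oasl1, a relative of the antiviral 2'-5' oligoadenylate synthetases, had levels of -3.30 in myoblasts, -2.33 in BIO cellulates and 0.28 in neurogenic cellulates, 6.09-fold higher. Rtp4, a chaperone of surface receptors, had -1.57, 0.61 and 2.64, 4.08-fold higher. The ubiquitin-like modifier gene Isg15 had -1.68, 1.89 and 3.83, and Usp18, whose product removes it from proteins, had -1.92, 2.92 and 4.69. Irf7, the transcription factor that amplifies interferon production, had 0.89, 2.49 and 3.83. For each of these 5 genes the BIO level lay between the other levels. Oas3 (3.30-fold), Gbp2 (2.12-fold), Bst2 (2.05-fold), Uba7, the activating enzyme for ISG15 (2.16-fold), and Ifitm3 (at least 3.38-fold, dim in BIO cellulates) were also higher. Parp14 was 3.30-fold higher by its brightest probe, while its other probes, dim on at least 1 array, gave -0.46 and -0.63. Rsad2 (0.06) and Ifitm2 (0.03) were near equal. Another 18 members were measured on neither array.

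In MHC class I presentation, 6 of 18 genes compared were past 2-fold on the higher side, 0 on the lower, and the median was 0.61. H2-T23, a nonclassical class I gene, had levels of -2.12 in myoblasts, -0.98 in BIO cellulates and 0.86 in neurogenic cellulates, 3.58-fold higher. H2-Q7 had -1.21, 0.86 and 2.56, 3.25-fold higher. The immunoproteasome subunit genes Psmb9 and Psmb8 were 2.53-fold and 2.43-fold higher, the latter with 1.19 on the log2 scale by its second probe, and the peptide transporter genes Tap2 and Tap1 gave 1.11 and 0.91. B2m, the light chain, was at least 12.3-fold higher, and both of its probes were dim on the other arrays. The classical heavy chain genes gave 0.90 for H2-K1 and -0.06 for H2-D1; probes for this family can pick up near-identical copies, so single H2 values are uncertain. Among complement and acute-phase genes, 4 of 16 compared were at least 2-fold higher and 0 lower (median 0.47), or 2 of 11 without genes bright on the neurogenic array alone: ceruloplasmin Cp was 3.39-fold higher (0.42, 2.85 and 4.61), complement factor B (Cfb) at least 5.05-fold, the serum amyloid gene Saa3 at least 10.1-fold and clusterin (Clu) 23.6-fold (-1.23, -1.36 and 3.20). Of 12 cytokine and chemokine genes compared, the chemokine gene Ccl7 was 3.24-fold higher (-1.41, 1.87 and 3.56) and the interleukin gene Il1a at least 2.05-fold lower. Of the leukocyte markers, Ptprc, Adgre1 and Itgam were dim in both cellulate cultures, and Csf1r and Cd14 gave log2 differences of -0.49 and -0.47. The log2 of the summed level of the 5 markers with a probe was 2.63 in BIO and 2.15 in neurogenic cellulates, against 3.13 in myoblasts. Cd14, the brightest of them, weighs most in that sum, with 2.98 in myoblasts, 2.32 in BIO cellulates and 1.85 in neurogenic cellulates. Whether leukocytes added to the immune genes above was not tested.

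The interferon element, 2 copies of GAAA with any 2 bases between them, is the core that interferon-activated complexes bind, and was searched in the same windows on both strands. It was present in 20 of 36 interferon-stimulated genes with a promoter (55.6%), in 5 of 16 genes of MHC class I presentation (31.2%) and in 1079 of 27025 genes overall (3.99%). Among interferon list members compared, 5 of 12 with the element and 3 of 10 without it were at least 2-fold higher, with medians of 0.93 and 0.79. Over the whole comparison, list members included, 25 of 341 with it (7.33%) and 370 of 9428 without (3.92%) were. In the same sets 9 (2.64%) and 159 (1.69%) were at least 2-fold lower, and the medians were -0.15 and -0.18. The sequences of 4 higher genes show how the copies (capitals) lie: overlapping runs in Isg15 and Bst2, and single copies in Oas3 and B2m.
Isg15, chr4:156200819-156200968, minus strand: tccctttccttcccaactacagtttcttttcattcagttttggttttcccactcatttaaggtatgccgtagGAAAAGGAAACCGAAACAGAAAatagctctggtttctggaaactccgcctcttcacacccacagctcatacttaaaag
Oas3, chr5:120777660-120777809, minus strand: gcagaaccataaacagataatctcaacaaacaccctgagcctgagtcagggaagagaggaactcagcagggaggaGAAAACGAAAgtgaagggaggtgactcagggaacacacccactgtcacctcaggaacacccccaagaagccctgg
Bst2, chr8:71537473-71537622, minus strand: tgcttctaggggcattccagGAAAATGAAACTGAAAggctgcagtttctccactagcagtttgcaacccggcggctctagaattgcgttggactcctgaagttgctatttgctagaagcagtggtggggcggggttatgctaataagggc
B2m, chr2:122147537-122147686, plus strand: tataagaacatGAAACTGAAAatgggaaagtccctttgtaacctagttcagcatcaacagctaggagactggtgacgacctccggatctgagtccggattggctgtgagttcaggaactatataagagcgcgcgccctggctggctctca
In Isg15 the 3 overlapping matches span positions -78 to -57 from the start site, and in Bst2 2 overlapping matches span -130 to -115. A match is a run of letters and no measure of binding.

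**Figure D3:**
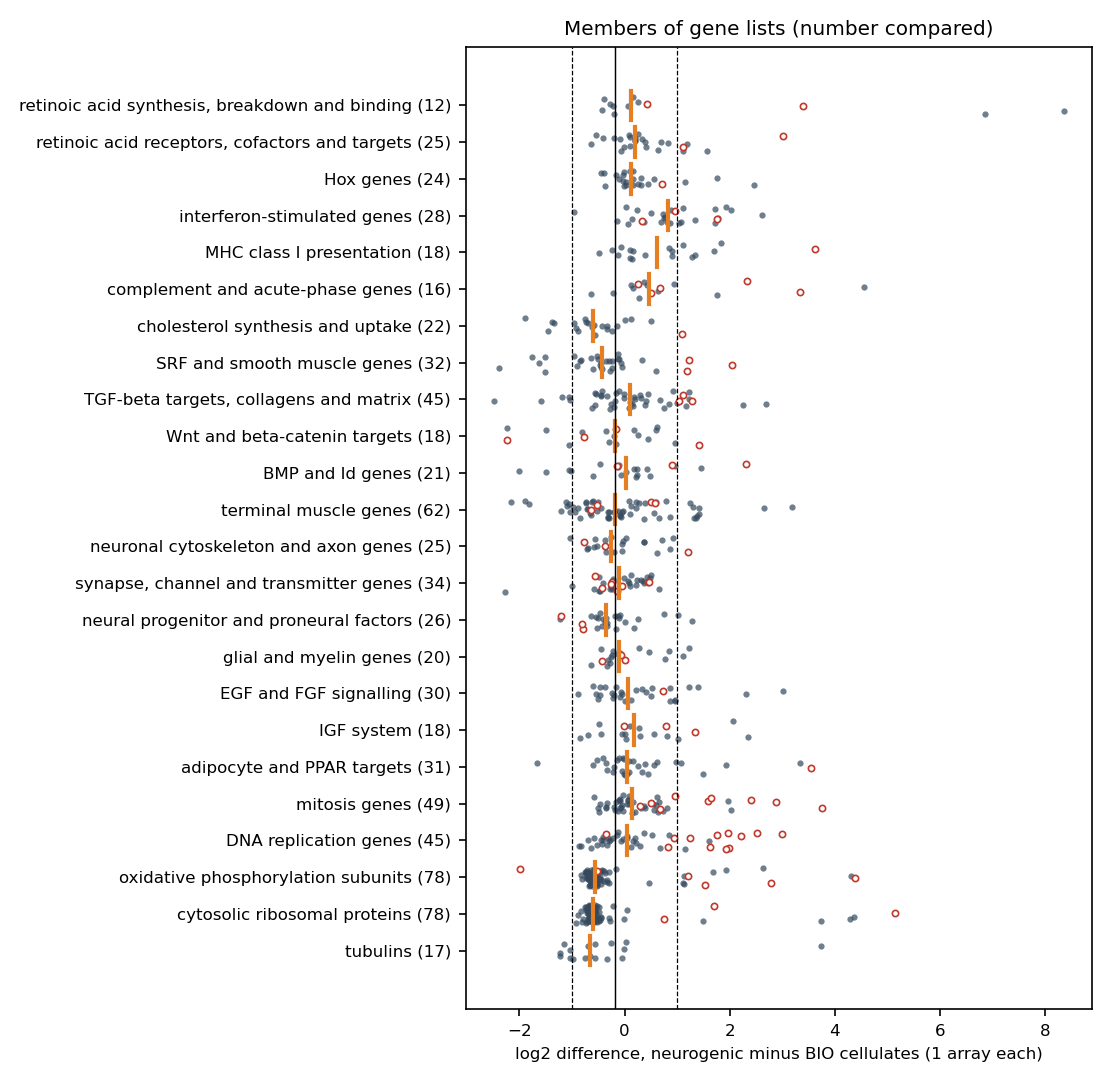
Log2 difference (neurogenic minus BIO cellulates, 1 array each) of every compared member of 24 gene lists; filled points were well above background on both arrays, open red points on 1 and stand for bounds, the orange bars are list medians, the solid line is the median of all genes compared and the dashed lines mark 2-fold. Interferon-stimulated genes have the highest median of the lists drawn, 0.83, and tubulins the lowest, -0.67.

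Of 22 genes of cholesterol synthesis and uptake compared, 4 were at least 2-fold lower in neurogenic cellulates, 1 was higher and the others were within 2-fold. Over all genes compared 1.8% were lower and 4.16% higher. The list's median was -0.60, beside -0.17 over all genes. The median was -0.24 with spike-in scaling, with 3 members then lower. Fdps, which makes farnesyl diphosphate, had levels of 5.77 in myoblasts, 4.48 in BIO cellulates and 3.13 in neurogenic cellulates, 2.55-fold lower. In the same order Cyp51, the lanosterol demethylase, had 3.02, 2.09 and 0.64, and Idi1, an isomerase of the early pathway, 3.05, 1.26 and -0.12. All 3 were highest in myoblasts and lowest in neurogenic cellulates. The second measured probe of Cyp51 gave -1.33. Sqle, the squalene epoxidase gene, gave -0.62 and the master regulator gene Srebf2 -0.75, both short of 2-fold. Insig1, a feedback inhibitor of the pathway, gave 0.51, and Ebp, a sterol isomerase gene, a bound of 1.09. The sterol element, TCAC and CCAC with any base between them, was searched on both strands and found in 1 of 18 promoters of the list's genes (5.56%), that of Hmgcs1, which was not compared, and in 388 of 27025 genes overall (1.44%).

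Lipid storage and fuel genes differed in both directions. Of 18 genes of fatty acid synthesis, Srebf1, their master regulator, was 3.13-fold higher (-1.91, -2.28 and -0.63), 0 were at least 2-fold lower and the median was 0.03. Of 31 adipocyte genes and PPAR targets compared, 5 were at least 2-fold higher and 1 lower, with a median of 0.04. Plin2, a coat protein of lipid droplets, had -1.34 in myoblasts, -1.42 in BIO cellulates and 1.92 in neurogenic cellulates, 10.1-fold higher. Pdk4, the kinase that closes glucose oxidation, was at least 11.6-fold higher from a probe dim on the other arrays, Cebpa 3.80-fold, with -0.64 by a dim second probe, the muscle fatty acid carrier Fabp3 2.83-fold and Klf15 2.12-fold, with 0.22 by its second probe. Lipoprotein lipase (Lpl) was 3.18-fold lower by its brightest probe, and a probe dim on at least 1 array gave 2.18. The adipocyte markers Adipoq and Fabp4 were not well above background on either array, and Pparg gave 0.44. Abca1, the cholesterol exporter, named after its values were seen, was 4.42-fold higher.

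Several smooth muscle contractile genes were lower in neurogenic cellulates. In the list of SRF and smooth muscle genes, 5 of 32 were at least 2-fold lower, under each of the 4 other scalings too. By bounds 3 were higher, and the median was -0.44, or -0.08 with spike-in scaling. Over all genes compared 1.8% were lower and 4.16% higher. Tagln, an actin-bundling protein, had levels of 8.12 in myoblasts, 7.31 in BIO cellulates and 4.92 in neurogenic cellulates, 5.24-fold lower, with -1.92 on the log2 scale by its second probe. Actg2, the enteric smooth muscle actin, had 6.60, 5.94 and 4.31, 3.09-fold lower, and smoothelin (Smtn) 4.20, 3.52 and 2.00, 2.87-fold lower. Ccn1 and Ccn2, secreted matrix proteins induced by stretch and YAP, were 3.37-fold and 2.86-fold lower. Cnn1 gave -0.96, the filamin gene Flna -0.90, and Acta2 -0.23 by its brightest probe and -1.07 by another measured on both arrays. The members with higher bounds were Csrp2 (at least 4.10-fold), Csrp1 (at least 2.35-fold) and Cnn2 (at least 2.27-fold). The smooth muscle markers were well above background on both arrays and in myoblasts, 5 of 5 on each. The log2 of their summed level was 9.02 in BIO and 8.29 in neurogenic cellulates, against 9.29 in myoblasts.

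Matrix genes past 2-fold lay on both sides, with 5 of 45 lower and 8 higher, beside 1.8% and 4.16% of all genes compared. The median was 0.10. Without genes bright on the neurogenic array alone, which could not be called lower, 5 of 42 were lower and 5 higher (median 0.04). Spike-in scaling gave 2 lower and 13 higher (median 0.46), the percentile over probes measured on both arrays 3 and 10, and normexp 2 and 2. Postn had levels of 3.75 in myoblasts, 1.93 in BIO cellulates and -0.55 in neurogenic cellulates, 5.58-fold lower. Thrombospondin Thbs1 had 5.02, 3.24 and 1.64, 3.02-fold lower, and its other probes gave -1.56 and -1.88. Col15a1 and Comp were 2.29-fold and 2.04-fold lower, and Sparc 2.09-fold by its brightest probe, with -0.07 by its second. On the other side stood small leucine-rich proteoglycans: decorin (Dcn) had -0.66, -0.64 and 2.06, 6.47-fold higher, and osteoglycin (Ogn) -2.70, 0.06 and 2.32, 4.79-fold higher. Fbln1 (2.34-fold), Thbs2 (2.25-fold) and Col18a1 (2.33-fold, 1.84 by its second probe) were higher too, and Spp1, Tgfbi and Mmp11 by bounds of 1.28, 1.12 and 1.03. The fibrillar collagen genes Col1a1 and Col1a2 were at -0.45 and -0.27.

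Secreted regulators of Wnt, BMP and activin signalling were among the lower genes. Wif1, which binds Wnt proteins outside the cell, had levels of 3.43 in myoblasts, 2.88 in BIO cellulates and 0.65 in neurogenic cellulates, 4.71-fold lower. Nkd2, an intracellular brake on the pathway, was at least 4.74-fold lower and the antagonist receptor gene Kremen1 2.82-fold lower (1.37, 1.88 and 0.38), while Sfrp1, another soluble inhibitor, was at least 2.66-fold higher. Follistatin (Fst), which traps activin and myostatin, had 7.34, 6.29 and 4.29, 4.0-fold lower. Bmp4 was 2.07-fold lower and Inhba, an activin subunit, 2.04-fold. In all, 4 of 18 Wnt list members and 4 of 21 BMP list members were lower, with Bmp4 in both. Higher members were 1 and 2, and the medians were -0.19 and 0.02. Over all genes compared 1.8% were lower and 4.16% higher. With spike-in scaling the lower members were 3 and 2, and the Wnt list's median was 0.11. Gdf15, a stress-induced cytokine, was 2.74-fold higher and Fstl1 at least 4.94-fold higher. In the Notch list, 1 of 20 was lower, the ligand gene Dner (2.86, 2.19 and -0.09, 4.86-fold), and 1 higher, the effector Hes1 (1.31, 0.19 and 1.32, 2.18-fold). The Hedgehog co-receptor gene Cdon was 3.40-fold higher, with 1.14 by its second probe, 1 of 8 compared.

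In the EGF, FGF and IGF lists the genes past 2-fold were all higher, beside 69.9% of all genes past 2-fold. The counts below stand beside 4.16% of all genes compared that were higher and 1.8% that were lower. Of 30 EGF and FGF signalling genes, 4 were at least 2-fold higher, 0 lower and the median was 0.07. Fgf21, a stress-induced hormone, had -3.11 in myoblasts, -1.30 in BIO cellulates and 1.71 in neurogenic cellulates, 8.07-fold higher. The receptor gene Fgfr2 was 4.94-fold higher by its brightest probe and 0.09 on the log2 scale by another measured on both arrays. The ETS factors Etv1 and Etv5, whose RNA follows FGF signalling, were 2.62-fold and 2.34-fold higher. In the IGF list, 4 of 18 were higher, 0 lower and the median was 0.19. Igf1, the growth factor itself, had 4.12, 3.89 and 5.96, 4.19-fold higher, with 2.51 by its second probe. Pappa, the protease that frees IGF from its binding proteins, was 5.12-fold higher, Igfbp5 2.03-fold and Dlk1 at least 2.54-fold. Of 29 hypoxia and glycolysis genes, Vegfa (2.13-fold) and Adm (2.23-fold) were higher, 0 were lower and the median was -0.31. Asns, the asparagine synthetase gene, was 2.33-fold higher, 1 of 2 among 36 amino acid response genes, the other being Fgf21.

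The muscle program was still present, and its isoforms differed. All 8 skeletal muscle markers were well above background on both arrays and also in myoblasts, so their detection does not set the cultures apart. The log2 of their summed level was 11.7 in BIO cellulates, 11.3 in neurogenic cellulates and 7.25 in myoblasts. In the list of terminal muscle genes, 9 of 62 were at least 2-fold higher and 8 lower, beside 4.16% and 1.8% of all genes. The median was -0.19. With spike-in scaling 12 were higher and 3 lower, and the median was 0.17. Lower and higher members both included developmental and cardiac isoforms, and no list by stage or fibre type was set up. Among the lower, Myl4, the embryonic light chain, had 3.08 in myoblasts, 8.09 in BIO cellulates and 5.93 in neurogenic cellulates, 4.46-fold lower, and -2.17 on the log2 scale by its second probe. Cardiac troponin T (Tnnt2) had 5.54, 6.67 and 4.78, 3.71-fold lower, the cardiac actin gene Actc1 5.24, 4.56 and 3.47, 2.13-fold lower, and embryonic myosin Myh3 gave -0.99. Hspb7 (3.54-fold), the calcium store protein Casq1 (2.32-fold), the actin filament genes Lmod3 and Klhl40 (2.06-fold and 2.16-fold) and the calcium channel subunit gene Cacng1 (2.09-fold) were also lower. On the higher side, Myh8, the perinatal heavy chain, had 4.08, 5.34 and 6.75, Myh1, an adult fast heavy chain, 3.81, 5.10 and 6.45, and myoglobin (Mb) -2.15, 1.20 and 2.52. These were 2.66-fold, 2.55-fold and 2.50-fold higher, and the second probe of Myh1 gave 1.06; the heavy chain genes are near-identical neighbours, so probes may share signal. The fast-fibre actinin Actn3 (2.61-fold), the slow-fibre protein gene Mybpc1 (2.37-fold), Xirp2 (2.47-fold) and Myh2 (2.66-fold) were higher, although the other probes of Myh2, dim on at least 1 array, gave -0.29 and -0.38. Myl1 was 9.05-fold higher from a low level (-5.61, -1.91 and 1.27), with -0.02 by a dim second probe, and Myl3, the slow and ventricular light chain, 6.25-fold higher (-2.49, 4.85 and 7.50), with 0.05 by a second probe well above background on both arrays. Among myogenic regulators and fusion genes, 2 of 16 were past 2-fold on the higher side and 1 on the lower. The laminin receptor gene Itga7 was 2.30-fold higher and Sim2 at least 2.77-fold lower; Myog gave 0.81. Agrn, which clusters acetylcholine receptors at the nerve-muscle junction, was 2.08-fold higher, 1 of 3 among 24 genes of that list, with Etv5 and Gadd45a.

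A CArG box, to which SRF binds, was found in the promoters of 7 of 55 terminal muscle genes (12.7%) and 6 of 26 genes of the SRF list (23.1%), against 488 of 27025 overall (1.81%). Of terminal muscle genes compared, 1 of 5 with the box was at least 2-fold higher and 1 of 5 lower. Among 42 without it, 7 were higher and 5 lower. Those with the box were Myl3 and Actc1, whose boxes lie at positions -85 to -76 and -47 to -38 from the start site (capitals). Both are shown because they carry the box and differed in opposite directions by their brightest probes.
Myl3, chr9:110763528-110763677, plus strand: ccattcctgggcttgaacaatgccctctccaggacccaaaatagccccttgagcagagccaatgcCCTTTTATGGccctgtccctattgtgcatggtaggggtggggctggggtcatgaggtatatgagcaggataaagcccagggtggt
Actc1, chr2:114052876-114053025, minus strand: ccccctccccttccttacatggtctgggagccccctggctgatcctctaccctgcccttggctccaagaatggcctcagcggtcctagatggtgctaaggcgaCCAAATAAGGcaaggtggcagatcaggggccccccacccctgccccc
In the SRF list, members with the box had a median of -0.44 (n = 6) and members without it -0.40 (n = 20). Of those with the box 1 was at least 2-fold higher and 0 lower, and of those without it 1 was higher and 2 lower.

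Each of the 5 lists of neuronal and glial genes held at most 2 members past 2-fold in either direction. Of 25 neuronal cytoskeleton and axon genes compared, 1 was at least 2-fold higher and 1 lower; of 34 synapse, channel and transmitter genes, 0 and 1; of 38 neurotrophin and guidance genes, 0 and 1; of 26 neural progenitor and proneural factors, 2 and 2; and of 20 glial and myelin genes, 2 and 0. These counts stand beside 4.16% and 1.8% of all genes compared, and the 5 medians ran from -0.35 to 0.09, beside -0.17 over all genes. With spike-in scaling the higher members were 4 in the cytoskeleton list, 4 in the glial, 3 in the progenitor, 2 in the guidance and 1 in the synapse list, and the lower members 0 in all but the synapse list, which had 1. The neurofilament gene Nefm was the higher neuronal gene, at -1.53 in neurogenic cellulates and dim elsewhere (at least 2.30-fold). Nsg1, an endosomal protein of neurons, was the lower synaptic gene, with 5.64 in myoblasts, 6.65 in BIO cellulates and 4.38 in neurogenic cellulates and -2.02 by its second probe. Tau (Mapt), which binds axonal microtubules, gave 0.93 by its brightest probe and 0.85 and 0.68 by its others. Of the defining markers, Map2 gave 0.86, Syn1 0.49, Tubb3 -0.26, Rbfox3 -0.37 and Stmn2 -0.20, and Snap25, Elavl4, Nefl and Gap43 were dim on both. The number of the 10 neuronal markers well above background was 5 in BIO cellulates and 6 in both neurogenic cellulates and myoblasts. The log2 of their summed level was 5.39 in BIO cellulates, 5.81 in neurogenic cellulates and 5.61 in myoblasts. Syn1, the brightest of them, weighs most in that sum. In the progenitor list Rest, a repressor of neuronal genes, was 2.43-fold higher, with -0.07 by a dim second probe, Gata2 2.01-fold higher, vimentin (Vim) 2.35-fold lower and Phox2a at least 2.31-fold lower. Among glial genes the neurotrophin receptor gene Ngfr (2.16-fold, 0.01 by its second probe) and the myelin gene Pmp22 (2.33-fold) were higher. Sox10 gave -0.44 and Mbp -0.22. Of the astrocyte markers, Gfap gave -0.08, S100b -0.12 and Aldh1l1 0.85, and Aqp4 and Slc1a3 were dim on both arrays. The Nefm and Rest values start from levels of -2.84 and -2.45 in BIO cellulates, where the lowest signal well above background was -2.73.

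Ribosomal protein and respiratory chain genes split by how bright their probes were in myoblasts, an array that enters the difference only through the choice of the brightest probe over the 3 arrays. The cut at a myoblast log2 level of 2 was chosen after the values were seen. Of 71 ribosomal protein genes at or above it, 0 were at least 2-fold different in either direction, and the differences ran from -0.92 to 0.04 with a median of -0.61. Of the 7 below it, 6 were at least 2-fold higher and all 7 lay above 0, with a median of 3.74. All 7 were well above background in neurogenic cellulates but only 4 in BIO cellulates, so the others entered through the neurogenic array alone. Rpl41 had 0.54 in myoblasts, 0.43 in BIO cellulates and 4.80 in neurogenic cellulates, Rpl37a 0.32, 0.28 and 4.02, and Rps4x -1.12, -1.57 and 2.71. Rpl39 was at least 35.4-fold higher, Rpl27a at least 3.26-fold and Rpl14 2.82-fold. The products of these genes belong to the same particle. Respiratory chain genes split the same way: of 61 at or above the cut, 1 was at least 2-fold higher (Cox6a1, 2.20-fold) and 0 lower, with a median of -0.59, and of 17 below it 10 were higher and 1 lower, with a median of 1.12. Of these 17, 13 were well above background in BIO cellulates and 15 in neurogenic cellulates. Atpif1, the inhibitor of ATP synthase, was 19.9-fold higher (-3.24, -1.94 and 2.37), Uqcr10 at least 20.8-fold, Sdhd at least 6.86-fold, Ndufb10 6.21-fold and Ndufb6 3.79-fold, whereas Ndufb5 was at least 3.96-fold lower. Over whole lists the medians were -0.60 and -0.57, or -0.07 and -0.14 after quantile normalisation. The array as a whole had more such probes: 96 of 703 probes well above background on the neurogenic array alone were at least 4-fold over both other arrays, against 10 of 729 for the BIO array and 11 of 2241 for the myoblast array. What these probes have in common was not tested.

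**Figure D4:**
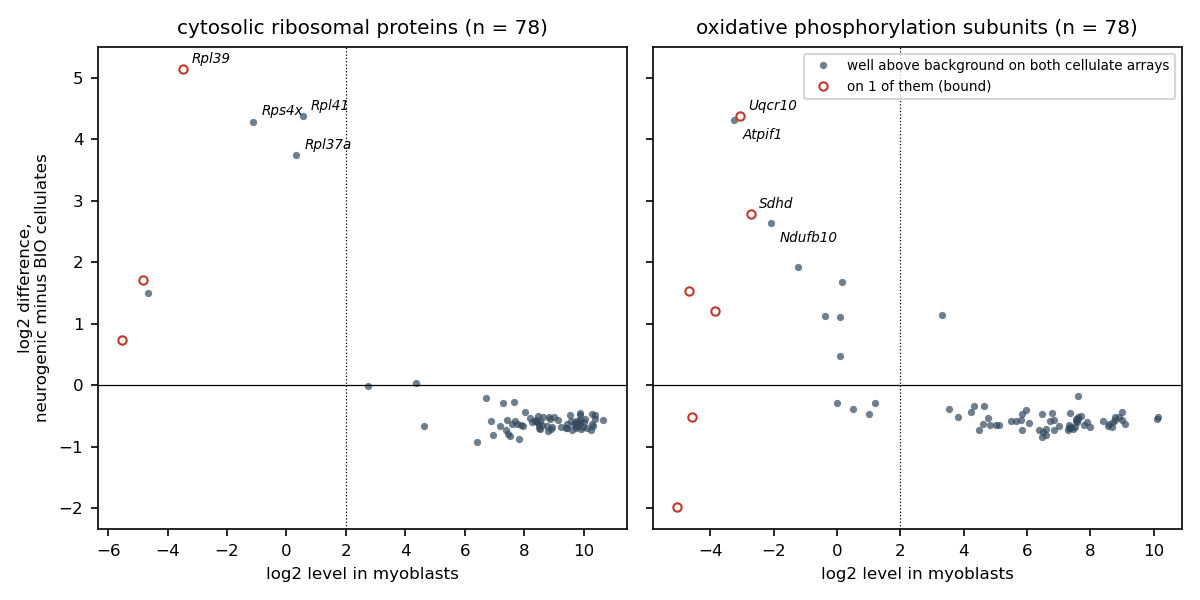
Log2 difference between neurogenic and BIO cellulates (vertical axis) against the log2 level in myoblasts (horizontal axis) for 78 ribosomal protein genes and 78 respiratory chain genes, 1 array each; open red points are bounds and the dotted line marks a myoblast level of 2. Nearly all genes with bright probes, Cox6a1 apart, lie in a narrow band at or below 0, with medians of -0.61 and -0.59. Rpl39, Rpl41, Rps4x, Uqcr10 and Atpif1, all left of the dotted line, lie highest.

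The cell cycle lists split at the same myoblast level, and how genes entered the comparison weighs on that split. Over all genes compared 4.16% were higher and 1.8% lower. Among mitosis genes 7 of 49 were past 2-fold on the higher side and 0 on the lower (median 0.15). Of 45 DNA replication genes 11 were higher and 0 lower (median 0.05), so these lists held 7 and 11 higher genes. None of the 28 mitosis and 22 replication genes at or above the myoblast level of 2 was among them: these had medians of -0.05 and -0.29. Of the 21 mitosis and 23 replication genes below it, 12 of each were well above background in BIO cellulates, against 21 and 22 in neurogenic cellulates. A gene dim in BIO cellulates entered only by being bright on the neurogenic array, so it could not be called lower. Over genes measured on both cellulate arrays, 2 of 40 and 2 of 33 were higher, beside 266 of all 10875 such genes (2.45%). The measured pairs were Cenpe, a kinetochore motor (4.07-fold by its brightest probe, 0.08 and 0.22 by dim ones), and cyclin Ccnb2 (3.93-fold), and the licensing factor Cdt1 (3.03-fold) and thymidine kinase Tk1 (2.23-fold). The largest bounds were Birc5 (at least 13.5-fold), Mcm4 (at least 7.99-fold), Incenp (at least 7.36-fold) and, for Mcm5, a log2 bound of 2.51. After normexp correction 2 members of each list were past 2-fold, and without genes bright on the neurogenic array alone 5 of 44 mitosis and 6 of 39 replication genes. Among p53 targets and inhibitors of cyclin-dependent kinases, Gadd45g was 2.54-fold lower (8.05, 8.04 and 6.69), 1 of 30, and 3 were higher, Gdf15 and, by bounds of 1.06 and 1.04, Gadd45a and Cdkn2b. In the lysosome list 5 of 34 were higher, 4 of them by bounds (Ctsl, Npc2, Ctsz and Ctsh) and the protease gene Lgmn 3.02-fold on both arrays; 3 remained without genes bright on the neurogenic array alone. In the selenoprotein list Selenow was 4.25-fold higher, Selenof at least 5.38-fold and Msrb1 at least 3.39-fold, 3 of 17.

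Tubulin genes, the subunits of the polymer that myoseverin takes apart, lay mostly below 0 (median -0.67). Of 17 compared, 5 were at least 2-fold lower and 1 higher, beside 1.8% and 4.16% of all genes. After quantile normalisation or spike-in scaling 0 were past 2-fold lower, with medians of -0.37 and -0.31. Tuba4a had 8.89 in myoblasts, 9.06 in BIO cellulates and 7.83 in neurogenic cellulates, with -1.34 and -1.29 by its other probes. Tuba3a (-1.24), Tubb4a (-1.15), Tubb5 (-1.05) and Tubb2a (-1.03, and -1.22 and -1.21 by its other probes) were the other lower members. Tuba1a, well above background on both arrays, was 13.3-fold higher from a low level (-0.51, -1.56 and 2.18). The isotypes are near-identical in sequence, so their probes may share signal. Genes of this level were lower in general: of 694 genes measured on both arrays with a mean log2 level over the 3 arrays above 6, 19 were at least 2-fold lower, 0 higher and the median was -0.45, against -0.09 for the 3865 with a mean level below 0.

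Other genes with the widest differences belong to no group above. Inmt, a methyltransferase of small amines, had -1.80 in myoblasts, -0.91 in BIO cellulates and 4.05 in neurogenic cellulates, 31.0-fold higher, and the phosphodiesterase gene Gdpd5 0.14, 0.31 and 3.90, a log2 difference of 3.59. Tmem59 (2.50, -1.97 and 2.52) and Emsy (3.47, -0.13 and 3.41) were low on the BIO array and alike on the other arrays. Tmem251, dim in BIO cellulates, was at 0.78 in myoblasts and 1.38 in neurogenic cellulates, at least 17.4-fold higher than in BIO cellulates. The mitochondrial ribosome gene Mrpl33 was 9.79-fold higher, and Psma2, Erh, Erp29 and Eif3h were higher by bounds of 4.22, 4.08, 3.94 and 3.89 on the log2 scale. Ptgis, the prostacyclin synthase gene, had 2.60 in myoblasts, 1.67 in BIO cellulates and -2.28 in neurogenic cellulates, 15.4-fold lower. Akr1c18, a dehydrogenase of progesterone and prostaglandins, had -2.98, 4.14 and 3.13, so that its neurogenic level stayed far above that of myoblasts; it and Ptgis were the 2 lower members of 13 prostanoid genes, of which 0 were higher. Anxa8, a membrane-binding annexin, had 3.78, 0.42 and -2.31, 6.67-fold lower. S100a11 was 2.38-fold lower, Anxa5 2.53-fold higher and S100a10 at least 3.09-fold higher. Cables1 (5.81-fold), the monoglyceride lipase gene Mgll (3.86-fold, -1.98 by another measured probe), the cartilage gene Cilp (3.78-fold), Chtf8 (6.45-fold) and Gnat2 (3.92-fold) were lower. Besides Nkd2 and Ndufb5 above, the widest bounds on the lower side were those of Mtus2 (-2.39), Prss46 (-2.38), Nol3 (-2.31), Reep4 (-2.15), Nectin4 (-1.95) and Sult3a2 (-1.93). Of 21 immediate early genes, Maff was 5.14-fold higher (2.22, 0.04 and 2.40) and Fosl2 2.73-fold lower, with -1.30 by its second probe. The antioxidant gene Sod3 was 3.06-fold higher, 1 of 37 glutathione and NRF2 genes, and of 22 ER chaperone genes P4hb was at least 5.45-fold higher. Of 5 aryl hydrocarbon receptor targets compared, 0 were past 2-fold, and of 10 iron handling genes 1 was, Cp.

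Where a gene past 2-fold had a second probe well above background on both arrays, that probe went the same way in most cases. Among the 266 higher genes measured on both arrays, 159 had 1 probe and 54 had such a second probe, which lay on the same side of 0 for 47 and past 2-fold for 26. Among the 153 lower genes, 86 had 1 probe and 47 had a second, on the same side for 46 and past 2-fold for 27, and 0 of either set were past 2-fold the opposite way. Of the 244 higher genes that rest on bounds, 204 had 1 probe and 0 had such a second probe, since genes whose probes disagreed were left out. Bounds therefore have no such check. A probe bright in neurogenic but dim in BIO cellulates could part from a brighter probe of its gene. The log2 differences were 5.56 and -0.57 for Atp5a1 and 3.90 and -0.19 for Cks2, whereas both probes of B2m (5.66 and 4.40) and of Ctsz (2.03 and 2.07) rose. How many genes were of each kind was not counted.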

How the data were processed

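RNA of 3 cultures (200 ng each) was labelled with Cy3 and hybridised, 1 culture an array, to a single slide. Spots were read with Agilent Feature Extraction 10.7.3.1 (build mm9), per the file headers, and the deposited scanner files hold linear intensity per spot, background-subtracted and not scaled between arrays. The authors' deposited value table is on the log2 scale: its column medians were 7.42 (myoblasts), 7.77 (BIO) and 7.88 (neurogenic), and it lay a constant 7.50, 7.51 and 7.51 above the levels used here, so its scale and centring were settled; how it was made is not given in the sources used here.

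The level was log2 of the processed intensity minus log2 of the array's 75th percentile over 43379 non-control spots (180.9 for myoblasts, 114.9 for BIO and 155.7 for neurogenic cellulates). No spot was saturated, and 101, 91 and 84 outlier spots were left out. Probe detection followed the files' own flag for spots well above background. Of 41158 probes kept, 26909 were named through accessions in a RefSeq table (GRCm38.p6) and 14249 were not; they gave 18348 genes, 6530 with more than 1 probe, of which the brightest over the 3 arrays was used. Of these, 10875 were measured on both cellulate arrays, 559 on the neurogenic and 821 on the BIO array, 6048 on neither, and 45 whose probes disagreed were left out. A bound sets the bright array's level against the dim probe's signal, raised to the weakest detected signal of its array where it was below that (log2 level -2.73 for BIO, -2.57 for neurogenic cellulates), and a bound under 1-fold counted as 0.

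Named genes were the 15 highest and 15 lowest measured on both arrays, the 8 largest bounds each way, members of 43 gene lists at least 2-fold different and cell type markers; others were chosen after their values were seen. Some genes that this rule names are not reported here; counts and medians include them. The members and lists were chosen with earlier results of these data known. With 1 array a group no test was made, and precision is limited by that number. The counting was tested on simulated data. Python 3.11.15, pandas 2.3.3 and, for normexp (offset 50) and quantile normalisation, limma 3.58.1 in R 4.3.3 were used. The planned normexp input, the mean signal, was replaced by the spots' median signal and median local background, the columns used here. Other scalings, filters, probe rules and the deposited values were the alternatives.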

Additional observations from a re-analysis of the deposited data

How the results depend on the processing

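The 2-fold counts were 510 higher and 220 lower, of 12255 genes. Normexp background correction gave 200 and 70, no filter on dim probes gave 1032 and 619, and keeping only genes well above background on both arrays gave 266 higher. Scaling to the spike-in controls, chosen after seeing the data, gave 956 higher and 84 lower and moved the median of all genes by 0.34, to 0.17. The share of higher among all calls was 69.9%, 91.9% with spike-in scaling, 81.3% (639 and 147) with the 75th percentile of probes measured on both arrays, which moved the median by 0.14, and 62.0% to 74.1% under the other alternatives, among them the authors' deposited values (538 and 230). Leaving out genes well above background on the neurogenic array alone, also chosen after seeing the data, gave 359 and 220. The log2 differences of named genes moved by more than the single-spot range of 0.36 for 141 genes with normexp (100 others did not), 46 with no filter (196 did not), 33 when several probes were replaced by their median and 22 with quantile normalisation, so printed folds depend on these choices. Taking that median turned the sign of 3 named genes: Parp14 (-0.46), Myh2 (-0.38) and Lpl (0.26). With normexp the interferon list's median was 0.35, and with no filter 0.44. Signal over background limits the dim genes: a BIO level under -2.73 gives only a bound. No paired analysis was possible because each group has 1 array, and for the same reason no array could be left out.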

Other observations

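Several genes outside the lists, named after their values were seen, also stood apart. The zinc-binding metallothionein genes Mt2 and Mt1 were 7.34-fold and 3.03-fold higher in neurogenic cellulates, with log2 levels of -2.02 and 2.65 in myoblasts, -1.51 and 2.43 in BIO cellulates and 1.36 and 4.02 in neurogenic cellulates. Vcam1, an adhesion molecule for leukocytes, was 6.85-fold higher (1.15, 1.71 and 4.49), the water channel gene Aqp1 6.40-fold (2.58, 0.71 and 3.39) and the endothelin receptor gene Ednra 5.20-fold (0.61, 0.25 and 2.63). Pleiotrophin (Ptn), a heparin-binding growth factor, was 5.21-fold higher (0.33, -2.19 and 0.19), the zinc finger gene Plagl1 9.03-fold (0.37, -0.39 and 2.79) and Medag 8.60-fold. Oas1f, an oligoadenylate synthetase relative outside the interferon list, was 5.09-fold higher, from -1.36 in myoblasts and 3.39 in BIO cellulates to 5.73. Of 3059 probes without a gene name that were well above background on both cellulate arrays, 53 (1.73%) were at least 2-fold higher and 34 (1.11%) lower, with a median of -0.18.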
